A study of Mus musculus with 14 samples.

Results

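The adult globin genes Hba-a1, Hba-a2, Hbb-b1 and Hbb-b2 were examined through the ends of their transcripts, as read by 3P-seq, a method that counts sequence tags at the position where a transcript is cleaved and given its poly(A) tail. Their members are the poly(A) sites on the + strand of chromosome 11 between 32183000 and 32198000 and on the - strand of chromosome 7 between 110960000 and 110977000 (mm9, counted from 1). These windows held 7 of the 159969 sites found over all libraries, 3 in the alpha window and 4 in the beta window. The genes were chosen by their tag counts in the 14 libraries, with lower values in knockout tissues already known, so the comparison of genotypes is described here and not tested.

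Each of 6 tissues (kidney, lung, liver, heart, muscle and white adipose tissue) gave 1 library from a wild-type mouse and 1 from a miR-22 knockout mouse, all labelled 129S5/SvEvBrd, and mESC (mouse embryonic stem cells) and 3T3 (a mouse fibroblast line) gave 1 library each. The series states that there were no biological replicates. The age and sex of the animals, the removal of blood from the tissues, the pooling of animals and the tissues that came from the same animal are not stated in the labels. The 12 tissue libraries held between 2036838 and 6010465 tags, and the mESC and 3T3 libraries 3672600 and 4236185. Tissue labels were not checked against marker genes, since no gene annotation of build mm9 was used.

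Haemoglobin, the oxygen carrier of red blood cells, is assembled from alpha chains and beta chains, which are encoded by separate gene clusters on different chromosomes. Adult globin genes are transcribed in erythroid precursors of the bone marrow, and young red cells that enter the circulation still carry globin mRNA, so RNA from a solid tissue usually holds globin mRNA from the blood within it. In bulk tissue RNA, fewer such cells and less globin mRNA per cell cannot be told apart. A microRNA such as miR-22 guides silencing proteins to mRNAs that pair with its seed, and the knockout mice lack it.

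The sequences that follow are that of the microRNA which the knockout mice lack and the promoters of an alpha gene and of adult beta genes. They come from RefSeq tables of build GRCm38.p6, which differs from that of the site positions. The mature miR-22-3p is given with its seed, bases 2 to 8, in capitals. Promoters are given from 250 bases before to 50 bases after the transcription start, with capitals for 4 motifs on either strand: the CACCC box, the CCAAT box, the core GATA of erythroid factor sites and the TATAA box. The promoter table matched 2 of the 4 members by symbol. On chromosome 7 it holds Hbb-bt and Hbb-bs, the adult beta genes of the reference strain, which are shown beside them.
mmu-miR-22-3p: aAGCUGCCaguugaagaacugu
Hba-a1, chr11:32283422-32283721 (+): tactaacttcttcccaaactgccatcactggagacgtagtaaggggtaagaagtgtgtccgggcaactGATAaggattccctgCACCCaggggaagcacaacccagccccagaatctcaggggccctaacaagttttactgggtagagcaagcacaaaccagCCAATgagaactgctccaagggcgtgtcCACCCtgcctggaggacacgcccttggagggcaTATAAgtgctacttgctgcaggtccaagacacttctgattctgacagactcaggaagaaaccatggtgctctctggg
Hbb-bt, chr7:103813874-103814173 (-): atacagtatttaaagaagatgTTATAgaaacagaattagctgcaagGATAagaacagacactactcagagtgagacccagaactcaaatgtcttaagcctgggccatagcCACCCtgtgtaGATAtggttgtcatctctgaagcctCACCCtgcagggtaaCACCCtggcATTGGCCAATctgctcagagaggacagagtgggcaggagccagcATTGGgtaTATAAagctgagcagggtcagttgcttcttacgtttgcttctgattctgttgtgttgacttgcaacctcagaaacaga
Hbb-bs, chr7:103827879-103828178 (-): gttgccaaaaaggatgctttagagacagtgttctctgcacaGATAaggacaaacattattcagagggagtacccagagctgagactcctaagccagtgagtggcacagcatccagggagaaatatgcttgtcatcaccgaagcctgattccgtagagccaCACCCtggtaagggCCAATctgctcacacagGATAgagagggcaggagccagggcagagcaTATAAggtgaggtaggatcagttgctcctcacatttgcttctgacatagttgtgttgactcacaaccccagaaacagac

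The Hba-a2 promoter, at chr11:32296242-32296541 (+), was the same as that of Hba-a1 over 297 of its 300 bases, with no mismatch. The promoters of Hbb-bt and Hbb-bs were identical at 216 of 294 aligned bases (73.5%). Every one of these promoters held all 4 motifs, as did 3.16% of 32851 RefSeq promoter windows of the same length. Singly, CACCC was found in 57.5% of all windows, CCAAT in 37.4%, GATA in 57.9% and TATAA in 24.9%. CACCC is the core of sites of the erythroid factor KLF1 and GATA that of sites of GATA1, but such a match is only a description of the letters.

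A main site lay within 50 nt of a position named in the rule, and the alpha window held 2. Alpha end 1 lay at 32184325 to 32184365, named by position 32184360, and alpha end 2 lay at 32197145 to 32197193, named by 32197177. They were 12817 nt apart and held 99.2% of the 2398 tags of the window. In the beta window, beta end 1 lay at 110961034 to 110961181, named by 110961034, and beta end 2 at 110975047 to 110975226, named by 110975062. They were 14028 nt apart and held 98% of 2557 tags. The rule does not say which gene symbol belongs to which end, so the ends are called by number, with end 1 at the lower coordinate. Tags that match both copies of a pair could be split between them or dropped, and the labels do not say how they were assigned, so the values of single ends are uncertain. Of the 106 intervals that the files list at the main sites, 8 carried a number of tags that was not whole.

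The other 3 sites were sparse. In the beta window, the site at 110962376 to 110962418 had 39.5 tags and lay 1343 nt from beta end 1, and the site at 110976383 to 110976424 had 11 tags and lay 1330 nt from beta end 2. Each of the main beta ends thus had a sparse site at nearly the same distance upstream. Whether these sparse sites are true transcript ends was not tested. The site at 32187878 to 32187911 in the alpha window had 18 tags, 3551 nt beyond alpha end 1. None of these 3 passed the filter on low counts, while all 4 main sites did. No site lay on the opposite strand in either window. The nearest sites of the same strand outside the alpha window, with at least 10 tags in all, had 31 wild-type and 49 knockout tags (50302 nt below it) and 11 of each (2800 nt above it). Around the beta window they had 290.2 and 373 tags (1133866 nt below) and 6 and 10 tags (138755 nt above).

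Lung carried the most globin tags and muscle and liver the fewest. Levels are in CPM, that is, tags per 1e+06 of a library size scaled by TMM (trimmed mean of M-values). A transcript gives tags at its end only, so no correction for length was made. All globin sites summed reached 320 CPM in wild-type and 105.6 CPM in knockout lung, a mean of 213 ± 152 (SD, n = 2). The sum was 184 and 34 CPM in heart (109 ± 106) and 179.8 and 36.7 CPM in kidney (108 ± 101). It was 39.2 and 18.1 CPM in adipose tissue (28.6 ± 14.9), 25.5 and 8.94 CPM in liver (17.2 ± 11.7), and 22.2 and 8.50 CPM in muscle (15.3 ± 9.67; wild type first, SD, n = 2 each). Neighbours in this order differed by less than the larger of their SDs. Each SD is taken over a wild-type and a knockout library, so it holds the difference between genotypes and is no measure of replicate spread. Within the wild-type libraries alone the order was the same. Within the knockout libraries only kidney and heart changed places. Even in wild-type lung the 2173 globin tags were 0.0472% of the library, and in knockout muscle 13 tags were 0.00056%.

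**Figure D1:**
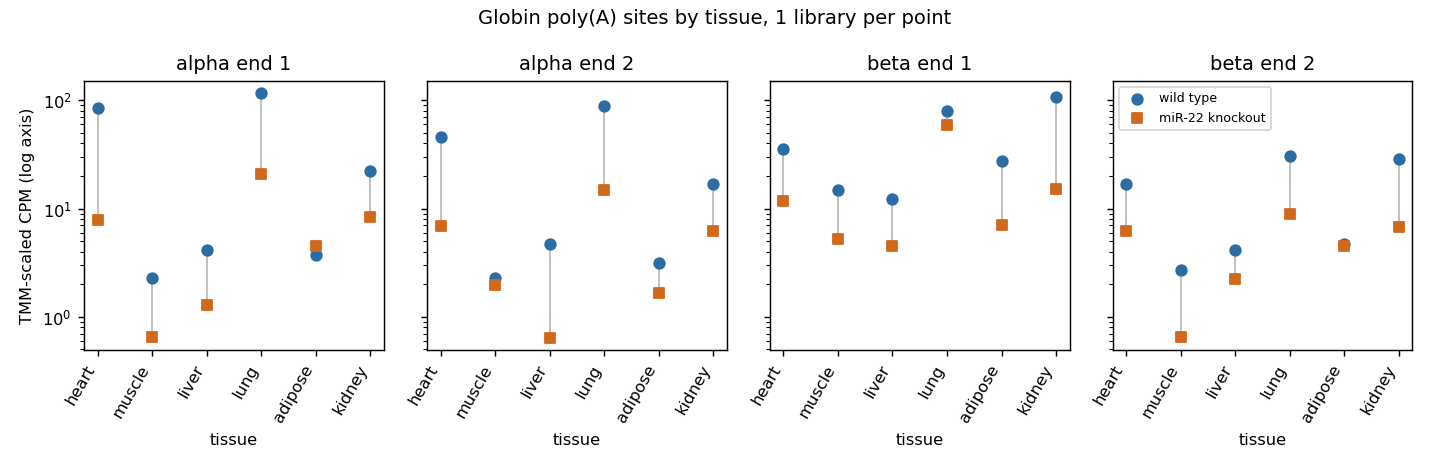
TMM-scaled CPM (log axis) of the 4 main globin sites in heart, muscle, liver, lung, adipose tissue and kidney, with a circle for the wild-type and a square for the miR-22 knockout library of each tissue. Alpha end 1 runs from 0.654 CPM in knockout muscle to 116.5 CPM in wild-type lung, and the knockout library lies below the wild-type one everywhere except for this site in adipose tissue.

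In lung, alpha end 1 reached 116.5 CPM (wild type) and 20.7 CPM (knockout). In the same order it had 84.7 and 7.92 CPM in heart and 22.2 and 8.36 CPM in kidney. It had 3.76 and 4.53 CPM in adipose tissue, 4.11 and 1.28 CPM in liver, and 2.26 and 0.654 CPM in muscle. The wild-type lung and heart libraries stood highest, and the knockout lung library lay below the wild-type kidney library.

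Alpha end 2 followed the same order of high libraries, with 88.7 CPM (wild type) and 14.7 CPM (knockout) in lung, 46.2 and 6.93 CPM in heart, and 17 and 6.21 CPM in kidney. It had 3.13 and 1.65 CPM in adipose tissue, 4.66 and 0.638 CPM in liver, and 2.26 and 1.96 CPM in muscle. The lowest value was that of knockout liver, from 2 tags.

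Beta end 1 was highest in wild-type kidney. Its values were 108.3 CPM (wild type) and 15.1 CPM (knockout) in kidney, 80.1 and 59.8 CPM in lung, and 35.8 and 11.9 CPM in heart. It had 27.6 and 7.0 CPM in adipose tissue, 14.9 and 5.23 CPM in muscle, and 12.3 and 4.47 CPM in liver. Knockout lung was the only knockout library above 20 CPM at this site.

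Beta end 2 stood at 30.3 CPM (wild type) and 9.01 CPM (knockout) in lung, 28.9 and 6.75 CPM in kidney, and 16.8 and 6.27 CPM in heart. It had 4.70 and 4.53 CPM in adipose tissue, 4.11 and 2.23 CPM in liver, and 2.71 and 0.654 CPM in muscle. At both alpha ends and at beta end 2 every library of lung, heart and kidney lay above every library of muscle, liver and adipose tissue. At beta end 1 these groups of tissues overlapped, since wild-type adipose tissue lay above the knockout kidney and heart libraries.

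Each tissue was set against the mean of the other 5 in a fit over all 23856 sites that passed the filter, to ask where globin transcripts were more or less abundant. The tags of these libraries were known when the genes were chosen, so the tests by tissue are no independent evidence and their p-values describe these libraries. Calls required a difference of 4-fold or more and, in edgeR's quasi-likelihood test, an adjusted p below 0.05. In lung 3 of the 4 main sites were called higher, where 12.5% of all tested sites were. The log2 difference was 3.21 at alpha end 1 (standard error 0.365, edgeR adjusted p = 5.49e-11), 3.12 at alpha end 2 (0.348, 3.16e-11) and 2.29 at beta end 1 (0.347, 1.42e-07). Beta end 2 differed by 1.74 (0.346, edgeR adjusted p = 3.24e-05), short of 4-fold. The median over the 4 was 2.70, against 0.09 over all tested sites. Without the knockout lung library beta end 1 differed by 1.48 (edgeR adjusted p = 0.0124) and was no longer called, nor was it with no genotype term (1.91). No group had a second library, so the spread behind these tests is what the genotypes differ by within tissues beyond an effect common to all.

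Heart resembled lung at the alpha sites only in part. Alpha end 1 was called higher in heart, by 2.33 on the log2 scale (standard error 0.397, edgeR adjusted p = 3.02e-06), so 1 of 4 sites was called, where 9.15% of all tested sites were. Alpha end 2 differed by 1.95 (0.388, edgeR adjusted p = 5.65e-05), just short of 4-fold. The beta sites gave 0.05 and 0.90 (edgeR adjusted p = 1 and 0.104). The call at alpha end 1 rested on the wild-type heart library, without which the difference was 1.15 (edgeR adjusted p = 0.286). It was also 1.81, below 4-fold, when libraries were scaled by total tags. Alpha end 2 was called, at 2.03 to 2.30, without any 1 of wild-type liver, wild-type lung, knockout heart, knockout muscle, knockout adipose tissue or knockout kidney.

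In kidney no site was called, where 13.8% of all tested sites were called higher. The beta sites still differed in the edgeR test, by 1.39 (standard error 0.361, adjusted p = 0.00155) at end 1 and 1.52 (0.365, adjusted p = 0.00062) at end 2. The alpha sites gave 0.95 and 0.89 (edgeR adjusted p = 0.0875 and 0.101). DESeq2 called 0 sites too, while all 4 had an unadjusted edgeR p under 0.05. Without the knockout kidney library beta end 1 was called, at 2.01.

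Muscle had the lowest mean level at 3 of the 4 ends, and liver at beta end 1. In muscle 3 of 4 sites were called lower, where 6.86% of all tested sites were. The log2 difference was -3.24 at alpha end 1, -2.16 at alpha end 2 and -2.39 at beta end 2 (edgeR adjusted p = 0.000193, 0.00728 and 0.0015). Beta end 1 differed by -1.43 (edgeR adjusted p = 0.0191), short of 4-fold. The 3 called sites had between 1 and 6 tags in a muscle library. All 3 calls rested on the wild-type muscle library: without it the values were -3.05, -0.82 and -2.83 (edgeR adjusted p = 0.0811, 0.774 and 0.111). With no genotype term alpha end 2 gave -2.23 (edgeR adjusted p = 0.0505). The median over all tested sites was itself -0.35 in muscle, and that of the 4 globin sites -2.27.

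In liver alpha end 1 was called lower, by -2.16 (standard error 0.576, edgeR adjusted p = 0.00165), which made 1 of 4 sites, where 9.88% of all tested sites were. The other 3 differed by -1.90 at alpha end 2, -1.72 at beta end 1 and -1.26 at beta end 2 (edgeR adjusted p = 0.00335, 0.00202 and 0.0345), all short of 4-fold. The call was lost without the wild-type liver library (-1.97, edgeR adjusted p = 0.104). Without the wild-type heart library or the knockout adipose library the value was -1.87 and -1.93, below 4-fold. Alpha end 2 was called as well without wild-type muscle (-2.17) or wild-type adipose tissue (-2.05).

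In adipose tissue no site was called, where 3.39% of all tested sites were called lower. Alpha end 2 differed by -1.90 (edgeR adjusted p = 0.0103) and alpha end 1 by -1.07 (edgeR adjusted p = 0.178). The beta sites gave -0.59 and -0.51. DESeq2 called 0 sites too, and 1 site, alpha end 2, had an unadjusted edgeR p under 0.05. Both alpha sites were called lower without the knockout adipose library, at -2.35 each. Alpha end 2 was also called without wild-type muscle (-2.20) and without knockout heart (-2.0).

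The mESC and 3T3 libraries had no tag at any of the 4 main sites. In mESC 0 of 3672600 tags allows a level of up to 0.817 tags per 1e+06, and in 3T3 0 of 4236185 allows 0.708 (3 counts, counting error only). Of the minor sites, 32187911 had 3 tags in mESC, or 0.817 per 1e+06 (exact Poisson 95% interval 0.168 to 2.39). With 1 library each, the cell lines were not tested.

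The knockout libraries held fewer globin tags in every tissue. This difference was among the values by which the genes were chosen, so it is given as a description. In the fit over all tissues, knockout minus wild type was -1.92 on the log2 scale at alpha end 1 (standard error 0.378), -2.04 at alpha end 2 (0.36), -1.62 at beta end 1 (0.319) and -1.40 at beta end 2 (0.326). The median over the 4 was -1.77, and that over all tested sites -0.02. Of all tested sites, 0.0671% were called lower in knockout at an adjusted p under 0.05, a share from which nothing is read here. Scaling by total tags moved the median of all tested sites to 0.16.

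Wild-type and knockout libraries overlapped at each site when tissues were pooled. Over the 6 tissues alpha end 1 had 2.26 to 116.5 CPM in wild type, with a median of 13.2, and 0.654 to 20.7 CPM in knockout, with a median of 6.22. Beta end 1 had 12.3 to 108.3 CPM, with a median of 31.7, and 4.47 to 59.8 CPM, with a median of 9.44. Within tissues the direction was nearly uniform: the knockout library was lower at alpha end 1 in 5 of 6 tissues and at each of the other 3 sites in 6. Of the 24 pairs of a site and a tissue, 23 were lower in knockout, and in 17 the exact binomial 95% interval of the ratio lay below 1. These intervals cover counting error only, since 1 library was set against 1. The pairs share libraries, so they are not independent of each other. How often other tested sites gave such counts was not examined. The counts thus only describe sites that were chosen with this difference known.

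**Figure D2:**
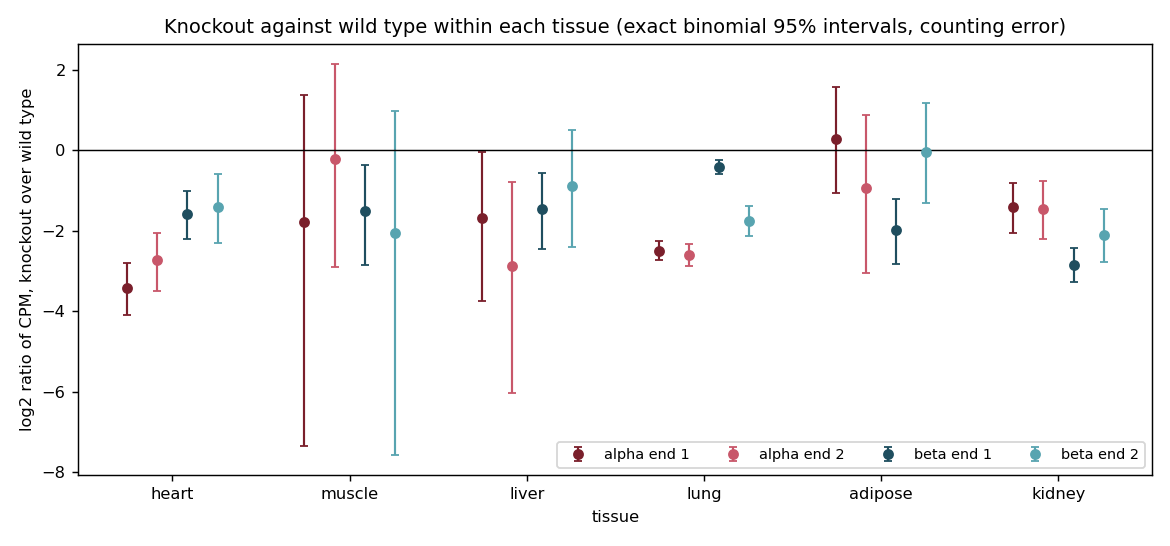
Log2 ratio of CPM, knockout over wild type, for the 4 main sites in each tissue, with exact binomial 95% intervals for counting error and a line at 0. In lung the alpha sites lie near -2.5 and beta end 1 at -0.42, while in kidney beta end 1 lies lowest at -2.84; the wide intervals in muscle and liver come from sites with few tags.

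In lung, heart and kidney the sizes of the differences were not alike for the sums of alpha and of beta sites. In lung the alpha sites summed were 5.76-fold lower in knockout (exact binomial 95% interval 5.11 to 6.49), from 206 to 35.7 CPM, and the beta sites 1.63-fold lower (1.47 to 1.81), from 114 to 69.9 CPM. In heart the alpha sum was 8.62-fold lower (6.30 to 12) and the beta sum 2.89-fold lower (2.09 to 4.05). Kidney had the opposite order, with an alpha sum 2.78-fold lower (2.03 to 3.84) and a beta sum 6.30-fold lower (4.99 to 8.03). In these single libraries the intervals of the alpha and beta folds did not overlap in lung, heart or kidney.

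In adipose tissue the alpha sum was 1.12-fold lower (0.553 to 2.31), from 22 and 15 tags, and the beta sum 2.68-fold lower (1.76 to 4.19). In liver the alpha sum was 4.58-fold lower (1.89 to 13.4) and the beta sum 2.38-fold lower (1.44 to 4.07). In muscle the alpha sum had 10 and 4 tags, a 1.73-fold difference (0.499 to 7.56), and the beta sum was 3.00-fold lower (1.43 to 7.04). All globin sites summed were between 2.14-fold lower in adipose tissue (1.51 to 3.10) and 5.48-fold lower in heart (4.4 to 6.87).

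The share of alpha sites among globin tags of a library does not depend on scaling. In heart the wild-type share was 71% and the knockout share 44.9%, with 64.4% and 33.9% in lung. In kidney it was 22.5% and 39.7%, and in adipose tissue 17.7% and 34.1%. Liver had 34.4% and 21.4%, and muscle 20.4% and 30.8%. Alpha tags thus outnumbered beta tags only in wild-type heart and wild-type lung. The exact binomial 95% intervals of the wild-type and knockout libraries did not overlap in heart (66.3% to 75.4% against 35.2% to 55.3%), lung (62.4% to 66.4% against 31.0% to 36.9%) and kidney (19.6% to 25.6% against 31.4% to 48.4%). These intervals cover counting error within single libraries only. A difference between genotypes in this share was not tested.

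**Figure D3:**
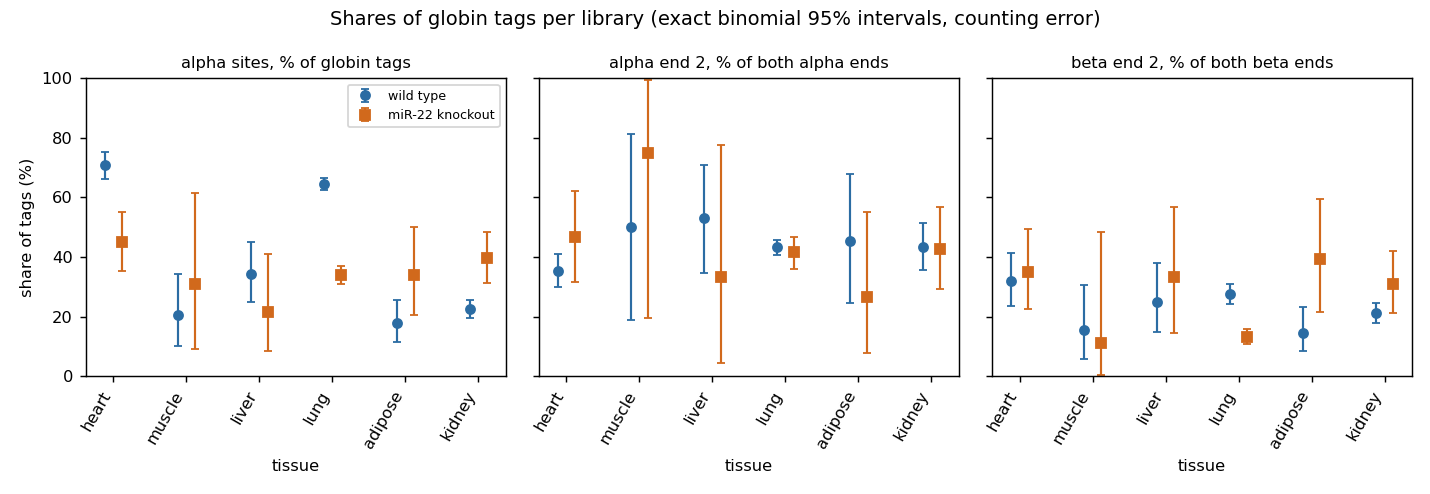
Share of alpha sites among globin tags, of alpha end 2 among tags of both alpha ends and of beta end 2 among tags of both beta ends, in percent, for each tissue with wild type as circles and knockout as squares and exact binomial 95% intervals. The alpha share spans 17.7% to 71%, while the share of alpha end 2 lies between 41.5% and 43.4% in the lung and kidney libraries.

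Heart had a mean alpha share of 57.9% ± 18.5 (SD, n = 2), against 31.9% ± 13.6 in the other 10 libraries. Over 66 splits the two-sided exact permutation test gave p = 0.0303, or 0.273 after Benjamini-Hochberg adjustment over 18 tests of 3 shares in 6 tissues, where a single share could reach no adjusted p below 0.273 in this design, so the adjusted test cannot decide on it. Lung had 49.1% ± 21.6, against 33.7% ± 15.9 (exact permutation p = 0.273, adjusted p = 0.818). The smallest p that 66 splits allow is 0.0152. The splits take no account of libraries coming in pairs from a tissue.

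Between the alpha ends, the libraries of lung and kidney had nearly the same shares, and those of the other tissues ranged from 26.7% to 75%. Alpha end 2 held 43.2% and 41.5% of the tags of both alpha ends in wild-type and knockout lung, and 43.4% and 42.6% in kidney. In heart its share was 35.3% (wild type) and 46.7% (knockout). Adipose tissue had 45.5% and 26.7%, liver 53.1% and 33.3%, and muscle 50% and 75%, from 4 to 32 tags in each of these 6 libraries. Over the wild-type libraries together the share was 42.3% of 1913 tags, and over the knockout libraries 41.9% of 467. Muscle had a mean of 62.5% ± 17.7 (SD, n = 2), against 41.1% ± 7.52 elsewhere (exact permutation p = 0.0303, adjusted p = 0.273).

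Among the beta ends, end 2 held the smaller part in every tissue library. Its share was 31.9% and 34.9% in wild-type and knockout heart, 21% and 30.9% in kidney, 25% and 33.3% in liver, and 15.4% and 11.1% in muscle. Lung had 27.5% in the wild-type library (exact binomial 95% interval 24.3% to 30.8%) and 13.1% in the knockout library (10.6% to 15.9%). Adipose tissue went the other way, with 14.6% (8.47% to 23.1%) and 39.3% (21.5% to 59.4%). Muscle had a mean of 13.2% ± 3.02 (SD, n = 2), against 27.1% ± 8.68 in the other 10 libraries (exact permutation p = 0.0606, adjusted p = 0.364). None of the 18 tests of shares passed an adjusted p under 0.05, and 2 had an unadjusted p under it; a single share could not pass in this design.

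Intervals ended close to the named position at the alpha sites and were more spread at the beta sites, mainly at beta end 2. Tags are placed by the 3′ end of their interval, since their positions within it are not given. At both alpha sites every tag lay in an interval that ended within 20 nt of the named position. At beta end 1, 96.4% did. At beta end 2, 67.5% of 551 tags did, a further 18% lay 21 to 100 nt upstream and 14.5% more than 100 nt upstream. In wild-type heart 54.1% of the 37 tags of beta end 2 lay more than 20 nt upstream (exact binomial 95% interval 36.9% to 70.5%). This was the highest share of the 12 tissue libraries, followed by knockout heart (47.4%) and wild-type liver (40%). Wild-type lung had 31.1% of 206 tags (24.8% to 37.9%) and wild-type muscle 0 of 6 (0% to 45.9%). Both of these intervals overlap that of wild-type heart, and a difference between tissues was not tested.

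**Figure D4:**
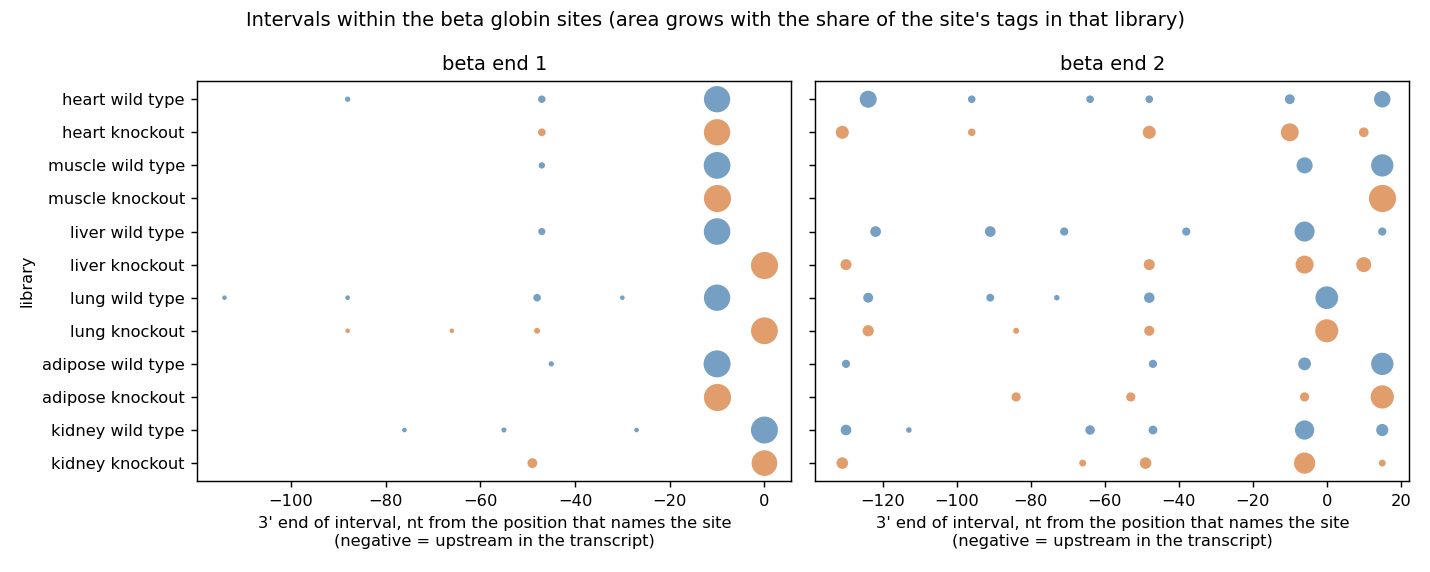
Intervals within beta end 1 and beta end 2 in the 12 tissue libraries, placed by the distance of their 3′ end in nt from the position that names the site, with a circle area that grows with the share of the library's tags at that site. At beta end 1 the leading interval lies at 0 or 10 nt upstream, and at beta end 2 it takes 5 places, shared by the wild-type and knockout libraries of 5 of 6 tissues.

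The leading interval, the one with the most tags, differed between tissues. At beta end 1 it ended at 110961034 in 4 libraries (both of kidney, knockout liver and knockout lung) and at 110961044 in the other 8. At beta end 2 it ended at 110975047 in the muscle and adipose libraries, at 110975062 in lung and at 110975068 in kidney and liver. The heart libraries differed, with 110975072 in knockout and 110975186 in wild type. The 2 libraries of a tissue shared the leading end in 16 of 24 cases over the 4 sites (66.7%), and libraries of different tissues in 62 of 240 (25.8%). Over all other sites with at least 10 tags in both libraries the share was 70.7% to 73.9% within tissues and 69.6% to 76.8% between tissues. The globin shares had no such minimum, and some rest on fewer than 10 tags. In knockout muscle the leading end of alpha end 1 and of beta end 2 is that of 1 tag. The globin shares therefore cannot be set directly against those of the other sites. The labels do not say how tags were grouped into intervals.

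The 4 main sites moved together across the 12 tissue libraries. On the log2(CPM + 1) scale Pearson's r was 0.97 between the alpha ends, 0.88 between the beta ends, and between 0.81 and 0.93 for an alpha with a beta end. These are descriptions over libraries that share tissues, genotypes and depth. Outside the windows, the site most like the sum of the globin sites, among 11627 with a mean of at least 5 CPM, was at chromosome 3, 151895645 to 151895756 (+), with r = 0.943. It ran from 16.9 CPM in knockout adipose tissue to 61.1 CPM in wild-type lung, a far narrower range than that of the globin sum. The next were on chromosome 16 at 19946585 to 19946639 (-) and 30602674 to 30602812 (+), with r = 0.896 and 0.886, chromosome 4 at 34513786 to 34513818 (+), with 0.885, and chromosome 1 at 156944657 to 156944712 (-), with 0.882. The last had 193 CPM in wild-type and 91.4 CPM in knockout lung. These 5 sites are given by position only, since no gene names of build mm9 were used, and other erythroid genes were not analysed here for the same reason.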

How the data were processed

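Poly(A) sites of 14 3P-seq libraries were used as deposited, with estimated counts of tags per site; the deposited values are not scaled to a common total. Per the submitters' processing notes, which name CASAVA 1.7, Bowtie and mm9, bases were called and reads aligned to that build; how tags became sites is not stated there. The track lines of 13 files name an offset of 1, which was not applied.

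Same-strand intervals that overlap or touch were merged over libraries, and tags were summed and rounded. In R 4.3.3, edgeR 4.0.16 tested sites kept by filterByExpr (tissue as group, minimum count 10), with TMM scaling, tissue and genotype as terms (5 residual degrees of freedom), and Benjamini-Hochberg adjustment over 23856 sites. On simulated counts for lung against the other 5 tissues, over 23856 sites, the test recovered 99.5% of 200 sites raised 8-fold. The raised sites had a mean above 5 CPM and were raised alike in both lung libraries. No other difference between tissues or genotypes was simulated, so this recovery does not carry over to sites with few tags. Permutation tests and intervals used scipy 1.17.1, and promoter alignments Biopython 1.88. Since tags may be PCR copies, intervals and floors cover counting error only. Alternatives, DESeq2 1.42.0 among them, are in the closing section.

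The members and lists were chosen with earlier results of these data known. The named sites are the most abundant at each of the 4 ends, every other window site with at least 10 tags, the nearest outside ones and the 5 most alike.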

Additional observations from a re-analysis of the deposited data

Results flagged for a closer look

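Among the 6 knockout libraries, that of lung stood apart from the others. At beta end 1 it had 59.8 CPM, with the beta sites summed 69.9 CPM and with all globin sites summed 105.6 CPM, and its gap to the next library exceeded Dixon's 95% limit in each case. These are 3 of 20 sets of 6 libraries examined, and they overlap. The limit assumes 6 values drawn alike from a normal distribution, where chance alone passes it in about 1 in 20 sets. CPM of 6 different tissues on a linear scale need not meet this, and log values were not examined. The gap is thus given as a description only.

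The share of alpha sites among globin tags went opposite ways between genotypes of different tissues. Knockout minus wild type was -30.5 percentage points in lung and 17.2 in kidney, with 1 library against 1. The difference between the tissues was not tested.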

How the results depend on the processing

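In lung, 3 of 4 globin sites were called higher, and between 2 and 4 under every alternative: 2 to 3 when a library was left out. In muscle 3 were called lower: 4 with either scaling by total tags, 2 with no genotype term, and between 0 and 3 without a library. In heart 1 was called higher: 0 with total tags per library, 2 with no genotype term, and 0 to 2 without a library. In liver 1 was called lower: 2 with total tags, 3 with total tags outside the mitochondrial genome, and 0 to 2 without a library. In adipose tissue 0 were called lower and in kidney 0 higher, against up to 2 and up to 1 without a library. Where a tissue kept 1 library, that library was assumed to vary like the others.

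Some single values turned sign, and not all of them were near 0. Beta end 1 in heart was -0.43 with total tags, -0.17 with total tags outside the mitochondrial genome, -0.069 with no filter, and without a library between -0.060 (without knockout kidney) and 0.23; without wild-type lung it was -0.04. In adipose tissue the main values were -1.07 at alpha end 1 and -0.51 at beta end 2. Without the wild-type adipose library they were 0.20 and 0.29, and without the knockout one -2.35 and -1.27. The cause was not tested.

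The genotype values at the 4 sites kept their sign under every alternative, between -2.40 and -1.21; leaving out a tissue pair gave -2.32 to -1.51 at alpha end 1, -2.21 to -1.82 at alpha end 2, -1.91 to -1.34 at beta end 1 and -1.64 to -1.21 at beta end 2. Over all tested sites, 16 were called lower in knockout, against 25 with DESeq2, 0 with no tissue term, and between 4 (without the kidney pair) and 42 (without the adipose pair) when a tissue was left out. The tissue term pairs the wild-type and the knockout library of each tissue. No account could be taken of tissues from the same animal, since the labels do not name them. All 18 share tests were rerun under 13 alternatives and none passed (lowest adjusted p of the exact permutation tests 0.218), which says nothing about stability, since a single share cannot pass; with 1 library left in a tissue the smallest p of 11 splits is 0.0909. The mESC value at 32187911 was 0.837 per 1e+06 without mitochondrial tags. Depth is a limit in knockout muscle, where alpha end 1 and beta end 2 had 1 tag each.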
